A study of Mus musculus with 4 samples.

Results

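Chromatin accessibility at the teneurin genes Tenm2, Tenm3 and Tenm4 was described in mouse oligodendrocytes (OLs) and in the oligodendrocyte progenitor cells (OPCs) from which oligodendrocytes arise. The 3 genes were taken by name from 21887 protein-coding genes of the RefSeq annotation. Every accessible peak inside a gene's mm10 interval, or within 2 kb of either end, was counted to that gene. These intervals held 264 of the 229485 regions obtained by merging the peaks of all libraries.

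The OL group held 2 libraries of cells sorted for the O1 antigen, 1 from the epiblast stem cell line 129O1 and 1 from the line EpiSC5. The OPC group held 2 libraries from the same lines, grown in medium with 20 ng/mL of each of the growth factors PDGFA and bFGF. After 4 passages these OPCs were purified with antibodies to NG2 and CD140a and grown on. Epiblast stem cells are pluripotent cells of the early mouse embryo, and both lines came from 129 mice, of the strains 129SvEv and 129S1/SvImJ. All cultures stood on poly(L-ornithine) and laminin, and none of the OPCs received SHH. Apart from sorting and any difference in medium, which went with cell type, no treatment or gene edit separated the groups. The part of sorting and medium cannot be told apart from that of cell type. Each line is a single derivation, and cells made in culture may differ from those of a brain. The labels do not say that the libraries came from separate differentiations, so the p-values given here reflect only how far these libraries spread, which may be technical.

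Teneurins are large transmembrane proteins of the cell surface that pair with one another, and across the gap between cells bind latrophilins, a group of adhesion receptors, often together with FLRT proteins. They are best known for matching neurons to their partners. In mice, loss of Tenm4 leaves small axons of the central nervous system poorly myelinated, and Tenm4 acts in oligodendrocyte differentiation through focal adhesion kinase, the product of Ptk2. Tenm2 and Tenm3 are known mainly from synapse formation and from wiring of the hippocampus and visual system.

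Omni-ATAC-seq marks open DNA by inserting sequencing adapters with the Tn5 transposase, and the deposited files list the peaks of each library. OL peaks numbered 127196 (129O1) and 152595 (EpiSC5) and covered 35.0 and 41.2 Mb. OPC peaks numbered 129534 (129O1) and 125002 (EpiSC5) and covered 38.6 and 44.1 Mb. The median peak was 190 and 192 bp wide in the OL lists and 201 and 237 bp in the OPC lists. Of 8 oligodendrocyte marker genes with enough coverage to test, 5 were more covered in OL, and the whole list of 9 summed to 19.1 and 21.8 kb in OL libraries against 8.82 and 12.1 kb in OPC libraries. The OPC markers Pdgfra and Cspg4 carried peaks in every library, with 2.84 and 2.80 kb in OL against 2.19 and 2.48 kb in OPC for Pdgfra. Neither gene passed the test, but of the 5 OPC markers Sox6 was more covered in OL (log2 difference 0.52, adjusted p = 0.00122, limma), and the list summed to 43.9 and 46.6 kb in OL against 35.9 and 35.0 kb in OPC. Coverage of the OPC list was thus not lower in the OL libraries. Of 5 vascular and mesenchymal markers, 4 were less covered in OL (list sums of 3.73 and 3.43 kb in OL and 8.99 and 9.25 kb in OPC), as were 2 of 5 astrocyte markers (list sums of 6.75 and 6.38 kb in OL and 9.10 and 9.23 kb in OPC). Of 5 neuronal markers, Snap25 and Eomes were less covered in OL, and the list sums overlapped, at 18.3 and 17.5 kb in OL and 16.4 and 20.0 kb in OPC. The part that any such cells had in the teneurin values was not tested. In bulk libraries, fewer cells with an open site and less opening per cell cannot be told apart.

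The region closest to a listed Tenm4 start had peaks in both OPC lists and in neither OL list, so the window at that start is shown first. RefSeq lists 4 start windows for the 3 genes, each of 250 bases before a start and 50 after it (GRCm38.p6). Beside the second Tenm4 start, that of Tenm3 is shown, since its window alone held one of the motifs searched. Both read 5′ to 3′ on the gene's strand, and capitals mark CpG pairs and, in Tenm3, the motif.

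Tenm4 second start, chr7:96211421-96211720, plus strand: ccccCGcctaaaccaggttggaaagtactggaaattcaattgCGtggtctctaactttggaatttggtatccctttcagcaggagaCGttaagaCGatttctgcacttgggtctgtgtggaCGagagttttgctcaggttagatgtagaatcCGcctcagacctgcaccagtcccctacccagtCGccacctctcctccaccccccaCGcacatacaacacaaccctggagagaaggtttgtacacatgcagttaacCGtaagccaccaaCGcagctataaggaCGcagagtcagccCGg

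Tenm3 start, chr8:48674641-48674940, minus strand: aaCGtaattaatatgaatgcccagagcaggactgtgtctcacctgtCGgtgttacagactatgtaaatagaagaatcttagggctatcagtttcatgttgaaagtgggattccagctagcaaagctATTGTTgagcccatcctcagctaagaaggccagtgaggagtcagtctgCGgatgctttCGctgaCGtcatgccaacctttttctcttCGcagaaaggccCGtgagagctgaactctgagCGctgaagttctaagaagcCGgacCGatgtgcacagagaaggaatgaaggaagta

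None of the 4 start windows carried a peak in any of the 4 lists. The listed Tenm2 and Tenm3 starts, at positions 36944241 and 48674690, lie inside the gene intervals. The 5′ ends of those intervals are at 37237053 and 49522824, so these windows do not describe the outer ends. The Tenm2 outer end carried a region with peaks in all 4 lists, described below. Among 21263 start windows of protein-coding genes, 55.7% and 56.1% carried a peak in the OL lists and 58.9% and 59.5% in the OPC lists. The teneurin windows held few CpG pairs, with 2 in Tenm2, 10 in Tenm3, 6 at the first Tenm4 start and 12 at the second, against a median of 13 over all those windows. Among windows with no more CpG pairs than each of these, 8.15%, 24.2%, 16.4% and 28.1% carried a peak in at least 1 list. Short motifs were searched on both strands of these windows and of 32851 start windows in all. The first SOX motif was spelled AACAAT and stood in 10.7% of all windows. A second SOX motif, with the letters ACAAAG, was held by 18.7% of them. The E-box was searched as CAGCTG and found in 16.3% of windows. The AP-1 motif, TGANTCA in full, was present in 7.81% of windows. The GC box was written GGGCGG for this search and was present in 35.7%. The TATA box was taken as TATAAA, which 13.6% of windows held. The only match in the teneurin windows was the first SOX motif, on the opposite strand of the Tenm3 window, once and overlapping no other motif.

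Summed over whole genes, peak coverage of the 3 teneurin genes did not pass the test between OL and OPC. Coverage here is the number of base pairs inside peaks, scaled so that all 4 lists have the same total. Across 14543 genes with enough coverage, 19.6% passed limma's moderated test at an adjusted p of 0.05, 11% being higher in OL and 8.63% lower in OL, so 0 of 3 teneurin genes is read against that background.

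Tenm2 lies at chr11:36006656-37237053 on the minus strand and spans 1230.4 kb. Its peaks numbered 46 in the 129O1 OL library and 65 in the EpiSC5 OL library, against 59 in 129O1 OPC and 54 in EpiSC5 OPC. They covered 13.6 and 15.3 kb in OL against 15.5 and 15.2 kb in OPC, and the groups overlapped. The means were 14.4 ± 1.24 kb in OL and 15.3 ± 0.199 kb in OPC (SD, n = 2 each), a log2 difference of -0.088 with SE 0.11 and an adjusted p of 0.664 (limma). Within each line the log2 difference of Tenm2 was -0.19 (129O1) and 0.011 (EpiSC5).

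Tenm3 lies at chr8:48225665-49522824 on the minus strand and spans 1297.16 kb. It had 37 and 49 peaks in the OL libraries, against 56 in 129O1 OPC and 35 in EpiSC5 OPC. They covered 11.1 and 12.4 kb in OL against 15.3 kb in 129O1 OPC and 10.6 kb in EpiSC5 OPC. The OL values lay between the 2 OPC values, and the lines moved in opposite directions, with log2 differences of -0.46 (129O1) and 0.23 (EpiSC5). The means were 11.8 ± 0.931 kb in OL and 13.0 ± 3.38 kb in OPC (SD, n = 2 each), with a log2 difference of -0.11, SE 0.14 and adjusted p of 0.677 (limma). Without the 129O1 OPC library the Tenm3 difference was 0.15, and without the EpiSC5 OPC library it was -0.38 (adjusted p = 0.0529), so its sign rested on which OPC library was kept.

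Tenm4 lies at chr7:96171244-96911093 on the plus strand and spans 739.85 kb. It had 35 peaks in each OL library, against 41 in 129O1 OPC and 35 in EpiSC5 OPC. They covered 10.4 and 9.10 kb in OL against 12.3 and 11.2 kb in OPC, without overlap between the groups. OL and OPC did not overlap in 55.5% of tested genes, and in 28.1% they did so with OL lower. The means were 9.75 ± 0.928 kb in OL and 11.8 ± 0.821 kb in OPC (SD, n = 2 each), a log2 difference of -0.27 with SE 0.12, unadjusted p of 0.0396 and adjusted p of 0.138 (limma). The difference was -0.24 in 129O1 and -0.29 in EpiSC5.

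**Figure D1:**
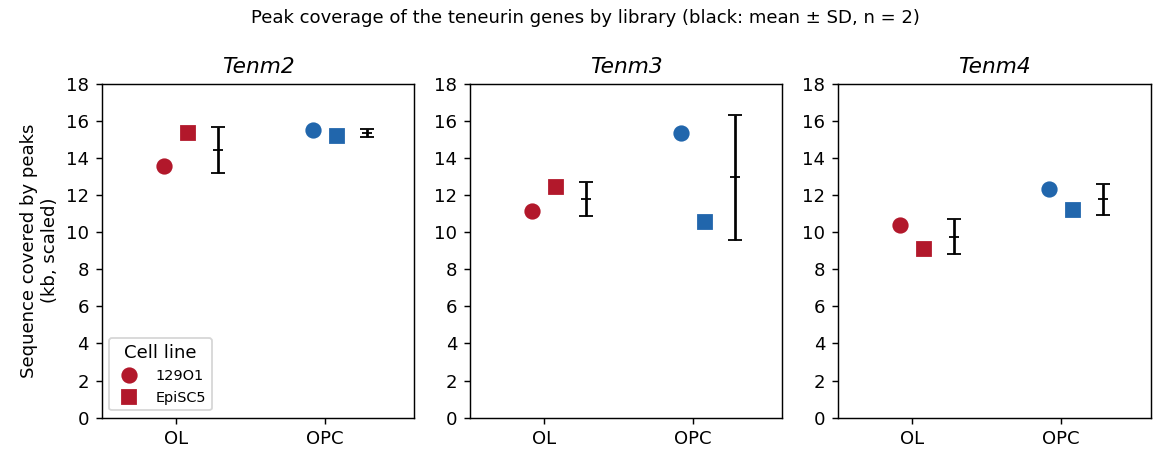
Scaled sequence covered by peaks (kb, y axis) in each OL library (red, left) and OPC library (blue, right) for Tenm2, Tenm3 and Tenm4; circles are 129O1, squares are EpiSC5, and black bars are the mean ± SD of 2 libraries. OL lies below OPC in both lines only for Tenm4 (9.75 against 11.8 kb), and the 2 OPC values of Tenm3 lie apart at 15.3 and 10.6 kb.

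Per length, Tenm4 was the most covered of the 3 genes in 3 of 4 libraries. It had 1399 and 1223 scaled bp per 100 kb in OL against 1660 and 1504 in OPC, and Tenm2 had 1099 and 1241 in OL against 1254 and 1231 in OPC. Tenm2 stood just above Tenm4 in the EpiSC5 OL library. Tenm3 was the lowest, with 856 and 957 scaled bp per 100 kb in OL against 1179 and 812 in OPC. Among 82 genes of at least 700 kb with 5 or more testable windows, the median density was 1236, and from the highest Tenm4 stood at rank 30, Tenm2 at 43 and Tenm3 at 61. The strongest peak in a teneurin gene had a fold enrichment, as given by the authors' peak caller, of 14.0 to 21.2 in the OL lists and 15.1 to 17.6 in the OPC lists. Between 43.2% and 54.3% of teneurin peaks in a gene ranked among the best 50% of their OL list by q, and between 36.6% and 57.1% among the best 50% of their OPC list.

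Regions with a peak in both OL libraries and in neither OPC library are called OL-only, the converse OPC-only, and those with a peak in all 4 libraries shared. Tenm2 had 11 OL-only, 15 OPC-only and 20 shared regions among 100, but which of the first 2 was larger turned with the setting. With the best 50% of each list Tenm2 had 10 OL-only and 6 OPC-only regions, with 50% of a region to be covered 18 and 15, and without 129O1 OL 27 and 15. Tenm3 had 12 OL-only, 7 OPC-only and 11 shared regions among 101, and Tenm4 had 10 OL-only, 5 OPC-only and 14 shared regions among 63. In Tenm3 the best 50% of each list gave 7 OL-only and 8 OPC-only regions. Together, 12.5% of the teneurin regions were OL-only, 10.2% OPC-only and 17.0% shared, against 15.6%, 9.89% and 24.1% genome-wide. Within protein-coding genes and 2 kb on each side these shares were 16.8%, 8.84% and 26.8%. The 82 genes of at least 700 kb had medians per Mb of 16.4 OL-only, 10.3 OPC-only and 15.9 shared regions, and 92.6 of any class. Per Mb and in that order, Tenm2 had 8.91, 12.2 and 16.2 of 81.0 regions. Tenm3 had 9.22, 5.38 and 8.45 of 77.6, and Tenm4 had 13.4, 6.72 and 18.8 of 84.7. In Tenm3, 58 regions came from a single library, or 57.4% against 38.5% genome-wide and 36.0% in protein-coding genes. Of these 58, 28 came from 129O1 OPC alone, the library that also set the high OPC value of Tenm3. With 1 library left out, a peak in the remaining library of its group is enough for a class, so the counts grow: OL-only regions numbered 27 in Tenm2 and 28 in Tenm3 without 129O1 OL. OPC-only regions without 129O1 OPC numbered 24 in Tenm2, 16 in Tenm3 and 16 in Tenm4, and without EpiSC5 OPC they numbered 30, 35 and 18 in that order of genes.

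**Figure D2:**
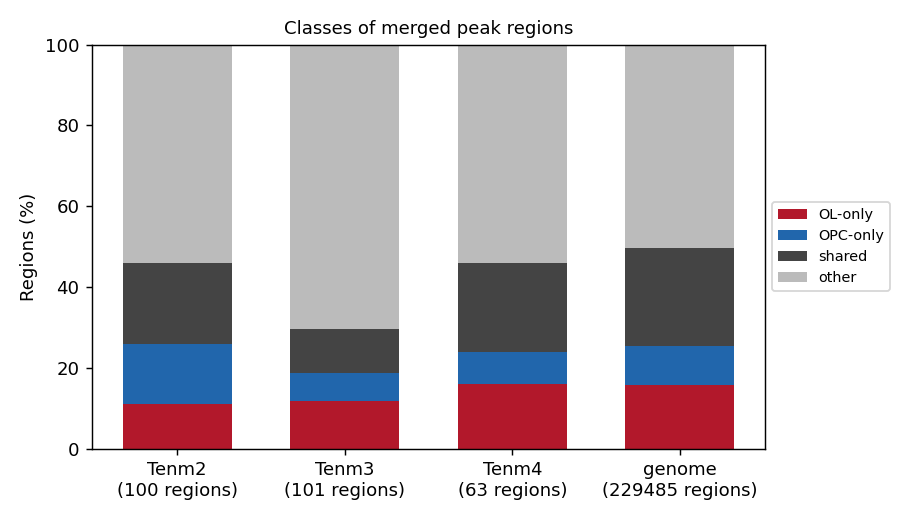
Share of merged peak regions (%, y axis) that were OL-only (red), OPC-only (blue), shared by all 4 libraries (dark grey) or in any other combination (light grey) in each teneurin gene and in the genome. Tenm2 has 15 OPC-only among 100 regions, and Tenm3 has the lowest shared share of the 4 bars (11 of 101).

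Most regions of the 3 genes lay toward the 3′ end, with 62 of 100 in Tenm2, 56 of 101 in Tenm3 and 52 of 63 in Tenm4 3′ of the midpoint, and no difference between classes was tested. All 7 OPC-only regions of Tenm3 were 3′ of the gene's midpoint, the nearest of them 708 kb from the 5′ end, while its 12 OL-only regions were spread with 6 on either side. An OPC-only region needs a peak in both OPC libraries. In the first of 3 equal parts of Tenm3, EpiSC5 OPC held 1.17 kb against 4.19 kb in 129O1 OPC. Regions of a single library also lay 5′ of the midpoint but enter neither class, such as chr8:48993401-48993838 with 438 bp in 129O1 OPC. In Tenm4, all 10 OL-only regions were 3′ of the midpoint, from 416 kb onward, and 2 of 14 shared regions and 1 of 5 OPC-only regions were 5′ of it. In Tenm2, 6 of 11 OL-only regions and 11 of 15 OPC-only regions were 3′ of the midpoint. Genes this long have many introns, but exon positions were not used here, so regions are given by distance only.

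**Figure D3:**
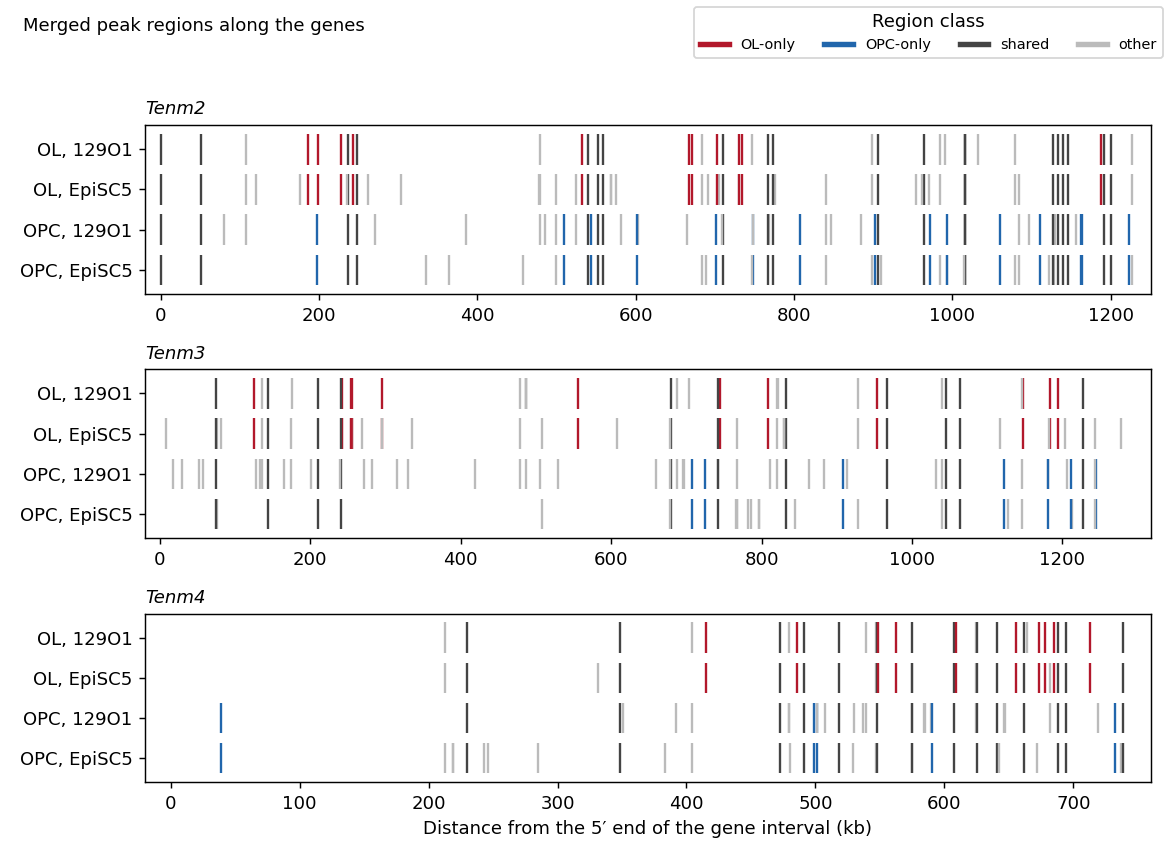
Merged peak regions along Tenm2, Tenm3 and Tenm4 (distance from the 5′ end of the gene interval in kb, x axis), with 1 row per library, OL rows above OPC rows; red regions are OL-only, blue OPC-only, dark grey shared and light grey any other combination. The first 200 kb of Tenm4 hold no OL region and a single OPC-only region at 39.2 kb.

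The share of each gene's coverage that lay toward its 5′ end was compared after cutting each gene into 3 equal parts. In Tenm2 the 5′ part held 23.3% and 24.3% of the coverage in OL against 16.7% and 14.0% in OPC. In Tenm3 it held 34.1% and 39.5% in OL against 27.3% and 11.1% in OPC. Both genes thus had a larger 5′ share in each OL library than in either OPC library. In scaled kb the 5′ part held 3.16 and 3.72 kb in OL against 2.59 and 2.13 kb in OPC for Tenm2, while for Tenm3 the groups overlapped, with 3.80 and 4.92 kb in OL against 4.19 and 1.17 kb in OPC. In Tenm4 the 3′ part held 76.3% and 80.1% in OL against 70.5% and 58.8% in OPC, but its coverage in kb overlapped, at 7.95 and 7.28 kb in OL and 8.71 and 6.58 kb in OPC. A share also moves when the other parts of the gene change. These shares are descriptions over 2 libraries a group. They were given no test and were not compared with those of other genes.

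Windows of 100 kb separated stretches that whole-gene sums had joined. Of 32 windows with their centre in 1 of the 3 genes, 27 had enough coverage to test, and 3 were higher and 4 lower in OL. Over 16446 windows of the genome, 22.6% passed the same limma test, 11.7% being higher and 10.8% lower in OL, so 7 of 27 is near the background share. In 3 of the 7, the less covered group had a mean under the 500 bp minimum. Those windows entered the test only through the group where they were high, which favored a difference in advance. They are described below by their values without a p. Of 6 tested windows with such a mean, 1 was higher and 2 were lower in OL, and the rest did not pass. The other 4 of the 7 were 1 higher and 1 lower in Tenm2, 1 higher in Tenm3 and 1 lower in Tenm4. With all tested windows counted, Tenm2 and Tenm3 had windows in both directions, as did 30.5% of the 82 genes of at least 700 kb, and 23 of those 25 genes did not pass as whole genes.

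In Tenm2, the window at chr11:36500001-36600000, near the middle of the gene, had 2.01 and 2.32 kb covered in OL against 0.888 and 0.602 kb in OPC. The log2 difference was 1.34 with SE 0.25 and an adjusted p of 0.00823 (limma). At the 3′ end of Tenm2 the window chr11:36000001-36100000 went the other way, with 1.77 and 1.56 kb in OL against 3.26 and 3.40 kb in OPC. Its log2 difference was -0.93 with SE 0.16 and an adjusted p of 0.00616 (limma). This window runs past the 3′ end of Tenm2 at position 36006656, so part of its coverage lay outside the gene. Both calls held with each of the 4 libraries left out and without scaling of the lists. Toward the 5′ end, the window chr11:37000001-37100000 had 0.920 and 1.16 kb in OL against 0.378 and 0.217 kb in OPC. Its OPC mean of 0.297 kb was under the minimum, and without EpiSC5 OL the window could not be tested.

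In Tenm3, the window chr8:49200001-49300000 in the 5′ part had 1.66 and 2.42 kb in OL against 1.10 and 0.328 kb in OPC, a log2 difference of 1.41 with SE 0.40 and an adjusted p of 0.0346 (limma). It did not pass without 129O1 OL (adjusted p = 0.0672), without EpiSC5 OL (0.138) and without scaling (0.0735). The window chr8:48600001-48700000, which contains the listed Tenm3 start, had 0.103 and 0.403 kb in OL against 1.35 and 0.904 kb in OPC. Its OL mean of 0.253 kb was under the minimum, and without 129O1 OPC it could not be tested.

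In Tenm4, the window chr7:96200001-96300000, which contains the second listed start, was listed at 0 in both OL libraries against 0.933 and 1.15 kb in OPC. It entered the test through OPC alone and fell below the coverage minimum without either OPC library, so no p and no fold are given. Further in, the window chr7:96600001-96700000 had 1.10 and 0.753 kb in OL against 2.05 and 1.69 kb in OPC, a log2 difference of -0.89 with SE 0.25 and an adjusted p of 0.0332 (limma). It was lost without 129O1 OL (adjusted p = 0.0516, limma), without EpiSC5 OL (0.142) and without 129O1 OPC (0.115).

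**Figure D4:**
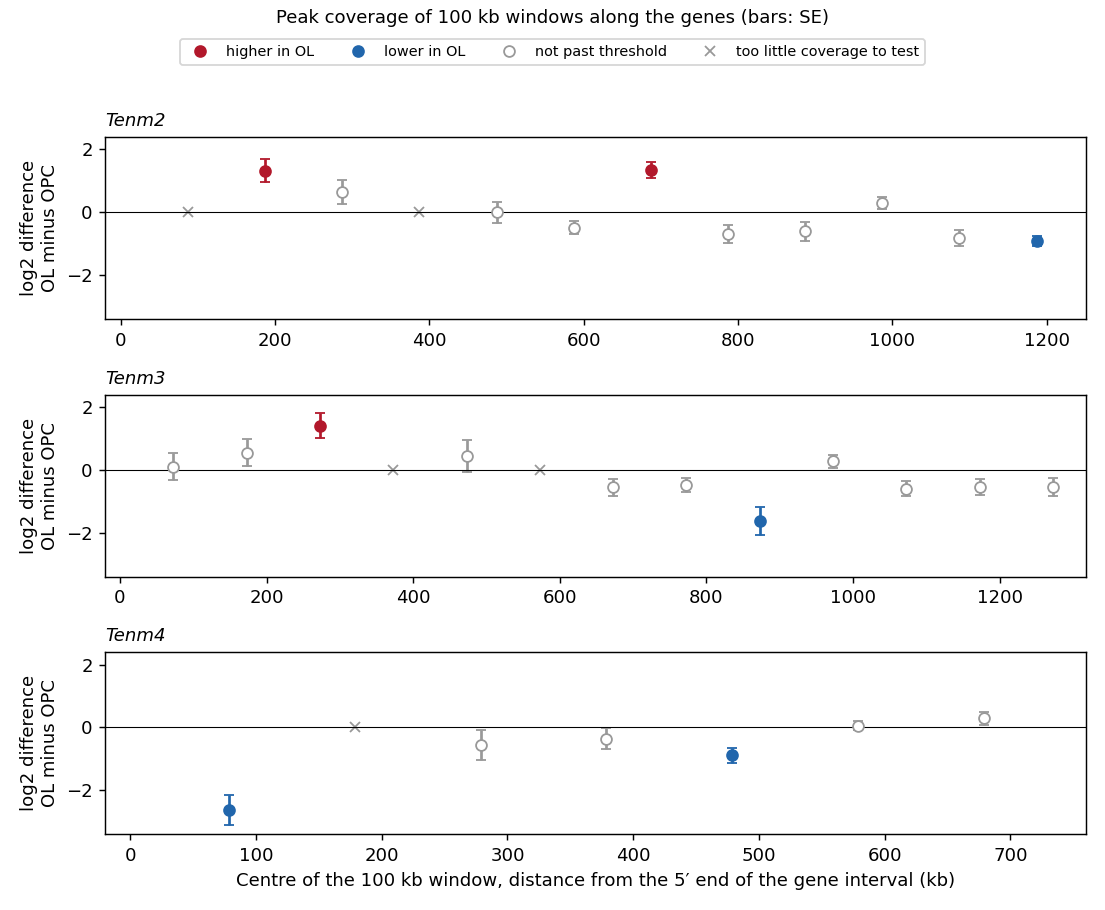
Log2 difference in covered sequence, OL minus OPC (y axis), of each 100 kb window along Tenm2, Tenm3 and Tenm4 (distance of its centre from the 5′ end of the gene interval in kb, x axis); bars are SE, red is higher and blue lower in OL past the threshold, open circles are not past it, and crosses had too little coverage to test. Tenm2 shows red and blue points in the same gene; 3 filled points (the first of Tenm2, the blue one of Tenm3 and the first of Tenm4) had a group under the 500 bp minimum, and that of Tenm4 is listed at 0 in OL, so its height depends on the 200 bp added before the log.

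The coverage of that first Tenm4 window came from 1 merged region, the OPC-only region chr7:96209815-96211087. EpiSC5 OPC had 1 peak of 1273 bp there, with a fold enrichment of 8.40 and a −log10 q of 26.0 by the authors' caller. 129O1 OPC had 3 peaks covering 907 bp, with folds of 5.92, 6.21 and 6.52, and neither OL list had a peak. The −log10 q of these 3 peaks was 9.30, 10.2 and 11.1, each under the median of 13.6 in the 129O1 OPC list. By base pairs covered over both OPC libraries it ranked 4 among 22702 OPC-only regions of the genome, whose median width was 270 bp. It ended 584 bp upstream of the second listed Tenm4 start, whose window is printed above. The strongest points (summits) of the peaks lay 765 bp before that start in EpiSC5 OPC and 1328, 1045 and 760 bp before it in 129O1 OPC. The 760 and 765 bp summits of the 2 lines thus nearly coincide.

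Beyond that region, Tenm4 had no peak in any of the 4 lists over 173 kb, from position 96211088 to 96384040. The longest such stretches were 72.1 kb in Tenm2 and 83.3 kb in Tenm3. This stretch of Tenm4 holds Mir708, a microRNA gene in the sense direction inside Tenm4, whose mature 5p strand is shown because the OPC-only region was the merged region closest to it. Its seed, bases 2 to 8, is in capitals (RefSeq, GRCm38.p6).

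mmu-miR-708-5p, chr7:96249450-96249472, plus strand: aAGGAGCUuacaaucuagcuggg

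The OPC-only region ended 38363 bp before miR-708-5p, and the nearest OL-only region began 337180 bp after it. OL peaks lay nearer than that, since the region chr7:96384041-96384460 had 254 and 290 bp in OL and 420 bp in EpiSC5 OPC. Mir6394 lies in the same stretch, 78281 bp from its nearest region. The lists hold no RNA measurement, so nothing is known here of the level of either microRNA or of Tenm4 transcripts.

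Among the 3 OL-only and 3 OPC-only regions with the most covered sequence in each gene, the other OPC-only regions were narrower. In Tenm3 the widest was chr8:48342248-48342833, with 523 bp covered in 129O1 OPC and 586 bp in EpiSC5 OPC, folds of 8.21 and 11.7, and no peak in OL. It was followed by chr8:48797957-48798424, with 468 and 432 bp in the OPC libraries, and by chr8:48614973-48615450, with 393 and 429 bp, which lay 59240 bp downstream of the listed Tenm3 start. In Tenm2 the first was chr11:36074069-36074482, with 366 and 414 bp in OPC, inside the 3′ window that was lower in OL. The next were chr11:36243657-36244065 and chr11:36176208-36176506, with 308 and 382 bp and with 299 and 245 bp in the OPC libraries. In Tenm4 the remaining OPC-only regions of this group were chr7:96903178-96903486 and chr7:96672397-96672692, 309 and 296 bp wide.

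The OL-only regions led with a close pair in Tenm3. The regions chr8:49267759-49268314 and chr8:49268617-49269021 lay side by side in the Tenm3 window that was higher in OL. The first covered 408 bp in 129O1 OL and 556 bp in EpiSC5 OL with folds of 6.49 and 7.82, and the second covered 326 and 405 bp with folds of 8.84 and 7.98. The third of Tenm3, chr8:48328670-48328969, covered 300 and 298 bp. In Tenm2, chr11:36566172-36566573 covered 396 and 337 bp in the OL libraries with folds of 10.1 and 9.76, and chr11:36503068-36503497 covered 309 and 411 bp. Both lay in the middle window that was higher in OL. The steepest Tenm2 region of the group was chr11:36704168-36704501, with folds of 12.5 and 16.0 over 262 and 334 bp. In Tenm4, chr7:96779830-96780157, chr7:96884253-96884552 and chr7:96844755-96845036 covered 318, 237 and 276 bp in 129O1 OL and 318, 294 and 251 bp in EpiSC5 OL. All 3 lay in the 3′ part of the gene.

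By the median, shared regions changed little in width, but single ones changed more in either direction. The Tenm2 region chr11:36096161-36097020 had 97 and 109 bp in OL against 570 and 860 bp in OPC. The Tenm3 region chr8:49447790-49448271 had 462 and 482 bp in OL against 110 and 239 bp in OPC. Both examples were chosen after their values were seen. The median log2 difference in scaled width was -0.13 over the 20 shared regions of Tenm2, -0.041 over 11 in Tenm3 and -0.028 over 14 in Tenm4, against -0.090 over all shared regions of the genome. In Tenm2, 13 of 20 were wider in OPC, against 59.8% genome-wide. One shared region of Tenm2, chr11:37235859-37237061, sat across the 5′ end of the gene interval, with 1068 and 1089 bp in OL against 1186 and 1197 bp in OPC, and was chosen after its values were seen. It lay far from the only Tenm2 start in the start table, so the outer end of the gene carried peaks in both cell types and the listed inner start carried none.

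Of 9 genes of the teneurin pathway, Ptk2 alone passed the test, higher in OL. They comprise the X-linked teneurin Tenm1, the latrophilin receptors Adgrl1, Adgrl2 and Adgrl3, the co-ligands Flrt1, Flrt2 and Flrt3, and the intracellular partners Ptk2 and Mbd1. All 9 were tested, with 1 higher and 0 lower and a median log2 difference of -0.0076. The median was -0.11 over the 3 teneurin genes and -0.023 over all 14543 tested genes. Of all tested genes 11% were higher in OL, so 1 of 9 is near the background share.

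Ptk2, which encodes focal adhesion kinase and lies at chr15:73205102-73423820, had 7.90 and 9.72 kb covered in OL against 5.46 and 6.14 kb in OPC. The groups did not overlap, as in 55.5% of tested genes, and both lines moved up, by 0.52 in 129O1 and 0.65 in EpiSC5. The means were 8.81 ± 1.29 kb in OL and 5.80 ± 0.482 kb in OPC (SD, n = 2 each), a log2 difference of 0.58 with SE 0.14 and an adjusted p of 0.00574 (limma). Ptk2 no longer passed when EpiSC5 OL was left out (log2 difference 0.43), nor without scaling (0.46), by number of peaks (0.55) or under median-of-ratios scaling (0.60), though its direction stayed the same.

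The receptors did not pass. Adgrl3, a latrophilin that binds teneurins and FLRTs at synapses, had 10.2 and 12.1 kb in OL against 11.8 and 12.1 kb in OPC. Adgrl1 had 2.38 and 2.35 kb in OL against 2.32 and 1.52 kb in OPC (log2 difference 0.30, adjusted p = 0.269, limma), and passed when 129O1 OPC was left out, at 0.58. Adgrl2 had 4.12 and 2.19 kb in OL against 4.65 and 2.89 kb in OPC, and its difference of -0.27 was -0.70 without 129O1 OL and -0.59 without EpiSC5 OPC, both past the threshold. Without EpiSC5 OL it was 0.16 and without 129O1 OPC 0.058. In both cell types 129O1 thus had more Adgrl2 coverage than EpiSC5.

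The FLRT genes, whose products bind latrophilins, held 6.68 ± 0.855 kb in OL and 6.61 ± 0.124 kb in OPC for Flrt1, 3.18 ± 0.0716 and 3.22 ± 0.581 kb for Flrt2, and 1.23 ± 0.0869 and 1.36 ± 0.102 kb for Flrt3 (SD, n = 2 each, OL then OPC). Mbd1, a methyl-CpG binding protein reported as a partner of the teneurin intracellular domain, had 0.984 and 0.830 kb in OL against 1.19 and 1.25 kb in OPC. It was lower in each OL library than in either OPC library, as were 28.1% of tested genes, and did not pass (adjusted p = 0.171, limma). Tenm1 was sparsely covered, with 1.34 and 1.10 kb in OL against 0.814 and 1.76 kb in OPC, and its 901.303 kb held between 5 and 10 peaks in a library. At the listed starts, Adgrl1, Adgrl3 and Flrt3 carried a peak in all 4 lists, while Tenm1, Adgrl2 and Flrt2 carried none there in any list.

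**Figure D5:**
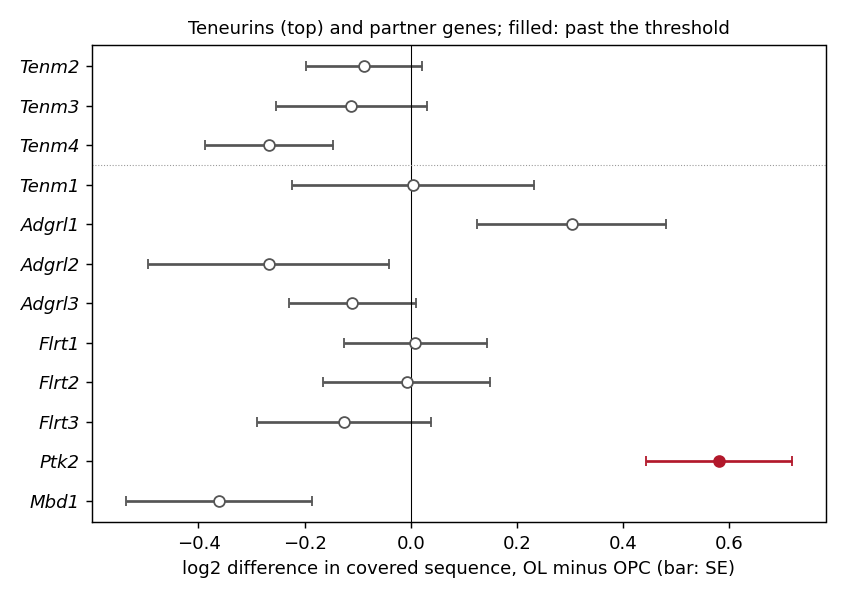
Log2 difference in covered sequence, OL minus OPC (x axis), of the 3 teneurin genes (top rows) and 9 genes of their pathway (below the dotted line); bars are SE and filled points passed the threshold. Only Ptk2 is filled, at 0.58.

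The patterns across libraries most like those of the teneurins were taken from 957 genes of at least 200 kb, by the Euclidean distance of the 4 log2 values after removing each gene's mean. For Tenm2 they were Pde4d (distance 0.0404), Suclg2 (0.0480) and Slc35f3 (0.0573). For Tenm3 they were Kcnq5 (0.0353), Ltbp1 (0.0982) and Cngb3 (0.130), and for Tenm4 Gbe1 (0.0145), Ttll11 (0.0478) and Prkdc (0.0589). Kcnq5 shared the high 129O1 OPC value of Tenm3, with 6.35 and 7.33 kb in OL against 9.03 and 6.08 kb in OPC. Gbe1 had 1.80 and 1.56 kb in OL against 2.15 and 1.96 kb in OPC. The likeness rests on 4 libraries and is a description.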

How the data were processed

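Omni-ATAC-seq peak lists of 4 libraries were used, 1 OL and 1 OPC library from each of 2 lines. The submitters' processing notes name the build mm10 and the tools MACS2, Picard, Trim Galore 0.3.1 and Bowtie2 2.3.2. Which MACS2 version and threshold were used, and whether reads were shifted for Tn5, stands in none of the sources used here. The authors deposited 1 list per library, not pooled. Beside its coordinates a deposited peak carries the authors' score, linear fold ratio over background, −log10 p and −log10 q. These served to rank and describe peaks of the same list only. Each list ended at a −log10 q of 3.00 to 3.03. The lists carry no read counts, which leaves depth unknown and allows no counting interval. A missing peak means that none passed the threshold, not that the site was closed.

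Gene intervals, start windows and microRNAs came from RefSeq tables of GRCm38.p6 (mm10). Base pairs covered by peaks were summed per gene with 2 kb on both sides, or per 100 kb window, and scaled to the mean list total. Features with a mean under 500 bp were left out. The test of OL against OPC used limma 3.58.1 (R 4.3.3) on log2(bp + 200), which understates changes of sparsely covered features (moderated test with trend, two-sided, Benjamini-Hochberg, threshold 0.05); the script was tested on simulated data. Other scalings, pseudocounts, flanks, peak filters and left-out libraries were tried. Peaks were merged where they overlapped or touched, and any overlap of 1 bp counted.

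The members, gene lists and tests were chosen with earlier results of these data known. Named are the members, 9 partner genes (1 further gene of that list is not reported here), the 3 long genes nearest in pattern to each member, and the 3 OL-only and 3 OPC-only regions with the most covered sequence per member. The OL and OPC libraries are paired by cell line per the labels. Deviations from the group means of same-line libraries correlated at 0.287 over 14543 genes, and the 2 pairs give the same value by construction. With the line as a block, adjusted p was 0.582 for Tenm2, 0.686 for Tenm3 and 0.114 for Tenm4.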

Additional observations from a re-analysis of the deposited data

Results flagged for a closer look

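For 5 genes the OL library lay above its OPC library in one line and below it in the other. For Tenm2 the log2 differences were -0.19 (129O1) and 0.011 (EpiSC5). For Tenm3 it was -0.46 in 129O1 and 0.23 in EpiSC5, where 129O1 OPC alone held 28 regions found in no other library. For Tenm1 it was 0.60 in 129O1 and -0.59 in EpiSC5, on 5 to 10 peaks a library. For Flrt1 it was 0.15 and -0.14, and for Flrt2 -0.20 and 0.19, in 129O1 and EpiSC5 in that order. With 1 library per line and cell type, the difference between lines was not tested.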

How the results depend on the processing

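No alternative brought Tenm2, Tenm3 or Tenm4 past the threshold, and of the 3 only Tenm3 changed sign. With 1 library left out, Tenm3 ran between -0.38 and 0.15, the upper value being that without 129O1 OPC (replicate 1). The genes called fell to 583 without scaling, 771 by number of peaks, 742 with 200 bp around each summit and 1632 with the best 50% of each list, against 2857. Without scaling the median of all genes moved to -0.13, against -0.023. Leaving out a library gave 2005 to 2300 genes.

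Partner genes called numbered 0 without scaling, by number of peaks and under median-of-ratios scaling, and 0 to 2 with a library left out. Signs reversed without scaling in Tenm1 (-0.10) and Flrt1 (-0.11), under median-of-ratios scaling in Flrt2 (0.014), and by number of peaks in Tenm1 (-0.14), Adgrl3 (0.38), Flrt2 (0.014) and Flrt3 (0.059). With a library left out they also reversed in 5 partner genes, which ran from -0.47 to 0.48 in Tenm1, -0.70 to 0.16 in Adgrl2, -0.23 to 0.0095 in Adgrl3, -0.12 to 0.14 in Flrt1 and -0.18 to 0.17 in Flrt2. The cause was not tested.

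Teneurin windows higher in OL numbered 1 without scaling and 1 with windows shifted by 50 kb, and 1 to 5 with a library left out, against 2 to 4 lower ones. With the cell line as replicate block, 3 windows were higher and 5 lower, all 7 teneurin window calls were kept, and Ptk2 still passed. Adding 50 bp or 1000 bp before the log, chosen after seeing the data, kept all 7 window calls.

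With the best 50% of each list, Tenm2 had 6 OPC-only and 9 shared regions, Tenm3 7 OL-only and 6 shared, and Tenm4 6 OL-only, 3 OPC-only and 5 shared. Asking that 50% of a region be covered gave 18 OL-only and 9 shared regions in Tenm2, 5 shared in Tenm3, and 9 OPC-only and 8 shared in Tenm4. With a library left out, OL-only regions numbered 13 to 27 in Tenm2, 13 to 28 in Tenm3 and 11 to 12 in Tenm4. OPC-only regions numbered 15 to 30 in Tenm2, 9 to 35 in Tenm3 and 6 to 18 in Tenm4. Shared ones numbered 20 to 25 in Tenm2, 12 to 14 in Tenm3 and 15 to 16 in Tenm4. With 2 libraries a group and no read counts, the number of libraries limits the precision, and coverage moves with peak width as well as peak number.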
